A study of Mus musculus with 30 samples.

Results

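The subject is the hormone response of late cells set against that of early cells: how far 1,25(OH)2D3, which is the active hormone made from vitamin D3, changed each transcript at day 35 of differentiation, beyond what it did at day 3. The members are the 12 libraries of the hormone experiment, of 30 in the series, in 4 groups with 3 biological replicates each. The groups are IDG-SW3 cells at day 35 given 100 nM 1,25(OH)2D3, day 35 cells given the ethanol vehicle, day 3 cells given 100 nM 1,25(OH)2D3, and day 3 cells given the vehicle, all for 24 h before the RNA was taken. IDG-SW3 is 1 mouse cell line, immortalised conditionally, whose cells mature in culture from the late osteoblast to the osteocyte stage. Every group had been expanded in interferon-gamma at a lower temperature and then moved to a higher one, in osteogenic medium with ascorbic acid and beta-glycerol phosphate and without interferon-gamma.

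1,25(OH)2D3 binds the vitamin D receptor, a nuclear receptor that pairs with a retinoid X receptor on DNA and raises or lowers the transcription of its targets. In bone-forming cells it is known to induce its own degrading enzyme, the matrix protein osteopontin and the osteoclast-promoting cytokine RANKL, and to act on genes of phosphate and pyrophosphate handling. Osteoblasts build the collagen matrix, and those that become buried in it turn into osteocytes, which regulate mineral and signal to osteoclasts.

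Levels are in CPM, a gene's counts scaled to the library's total, and are given per library in the order of replicates 1, 2 and 3. A response is the log2 ratio of treated to vehicle cells on a day, and the difference between the responses is the day 35 response minus the day 3 response, each ± its SE. Both came from edgeR's quasi-likelihood test over all 12 libraries, and its p-values were adjusted by Benjamini-Hochberg. Adjusted values below 0.05 are named as calls. Raised or lowered by the hormone means higher or lower in treated than in vehicle cells of that day. Other differences between the treated and vehicle cultures were not tested. The libraries held 22062866 to 54325515 counts. The 3 hormone libraries of day 3 stood apart from the rest by a diffuse background. Olfactory receptor genes, not known to be active in bone, took 0.0508% to 0.0743% of counts there, against 0.00397% to 0.00561% in vehicle cells of day 3. Day 35 hormone replicate 2 held 0.0431%, the other hormone libraries of day 35 held 0.00328% and 0.00482%, and vehicle cells of day 35 held 0.00275% to 0.0151%. At day 3 the background and the hormone cannot be told apart by leaving libraries out. Each difference was therefore fitted again after the background per kilobase had been subtracted from every gene with a known length. Another fit took the background of each library as a covariate. The labelled cell type was checked by its markers: *Sp7*, *Alpl*, *Col1a1*, *Bglap* and *Ibsp* reached 5 CPM in all 3 libraries of 3 groups and all but *Sp7* in vehicle day 3 cells. The osteoblast marker *Runx2* did so in no group. The osteocyte markers *Phex* and *Pdpn* did so in all 4 groups and *Dmp1* only in both day 35 groups, while *Fgf23*, *Sost* and *Mepe* did so in no group. Of the chondrocyte markers *Sox9* and *Col10a1* did so in all 4 groups and *Acan* in both day 35 groups, and of the adipocyte markers *Fabp4* did so in both day 35 groups. None of the macrophage and endothelial markers did so in any group, but their sums were highest in treated cells of day 3 (2.46 to 4.28 CPM and 9.61 to 11.3 CPM), and the part of the background in this was not tested.

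Late and early cells shared part of the hormone response, but many genes moved by different amounts or in opposite directions. Of 9199 genes tested, 1513 (16.4%) had a different response at day 35, 792 of them (8.61%) a higher one and 721 (7.84%) a lower one, and the median difference over all genes was −0.0029. The hormone response itself was called for 1092 genes (11.9%) at day 35, 603 raised and 489 lowered, and for 2115 genes (23%) at day 3, 1138 raised and 977 lowered. Without day 35 vehicle replicate 2 the day 35 response was called for 652 genes. After subtraction of the background the difference was called for 1212 of 8803 genes (13.8%), 731 higher (8.3%) and 481 lower (5.46%). With the background as a covariate it was called for 613 (6.66%), 391 higher (4.25%) and 222 lower (2.41%), and the day 3 response for 504 genes (5.48%). Without day 35 hormone replicate 2 the difference was called for 1259 genes. In bulk RNA a fall in a transcript and a fall in the number of cells that carry it cannot be told apart.

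Genes called in both the plain and the subtracted fit with the same sign numbered 1128, and they fell in 4 classes by the day with the larger response. Cells of day 3 lowered 419 of them more, by a median difference of 1.21, and raised 333 more, by −1.07. Cells of day 35 raised 249 more, by a median of 1.17, and lowered 127 more, by −1.01. In 138 genes both responses passed the test with opposite signs. Of the 603 genes raised at day 35, 161 (26.7%) were also raised at day 3, where they were 14.1% of the raised genes. Lowered genes overlapped in 118, which were 24.1% of those at day 35 and 12.1% of those at day 3. Another 112 genes were raised at day 35 and lowered at day 3, and 54 went the other way. After subtraction these counts were 95 and 17. For comparison, 12.4% of all genes tested were raised and 10.6% lowered at day 3. The 112 were 18.6% of the genes raised at day 35. The 54 were 11.0% of those lowered at day 35, no larger a share than over all genes. Across all genes tested the day 35 and day 3 responses, which share no library, correlated at r = 0.0754 (Spearman's rho = 0.140), and after subtraction at r = 0.224 (rho = 0.222).

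**Figure D1:**
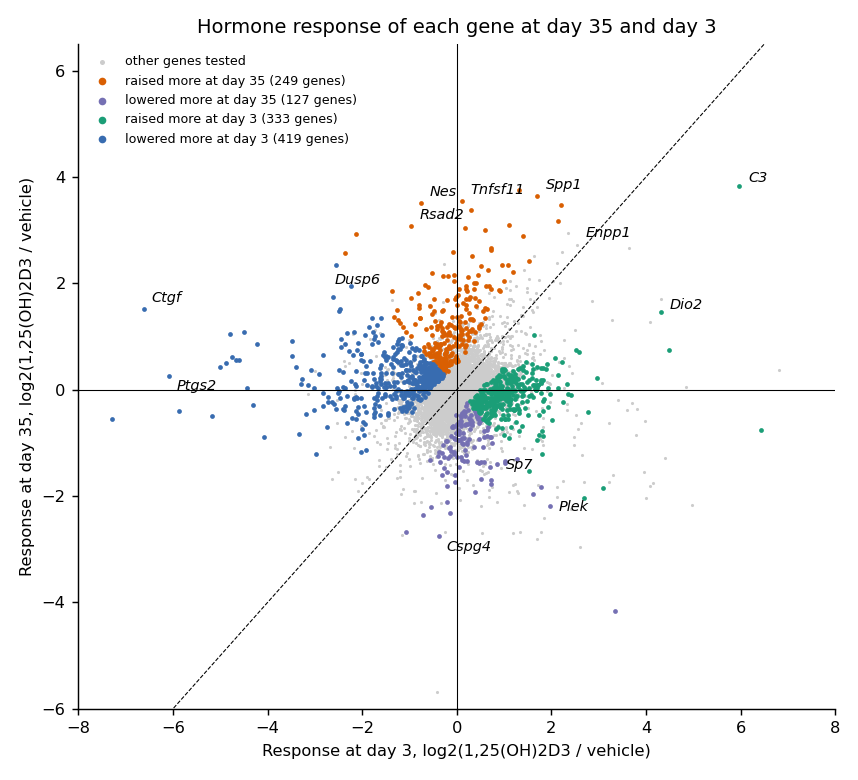
Response to 1,25(OH)2D3 of each of 9199 genes at day 35 (vertical axis) and day 3 (horizontal axis), in log2(1,25(OH)2D3 / vehicle). Colours mark the 4 classes of genes whose responses differed in both fits, the dashed line marks equal responses, and *Ctgf* and *Ptgs2* lie far to the left with day 3 responses below −6.

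The degrading enzyme of the hormone was induced at both ages and more in late cells. *Cyp24a1*, the 24-hydroxylase that inactivates 1,25(OH)2D3, had 3233, 2245 and 4807 counts in treated and 1, 2 and 1 counts in vehicle cells of day 35. At day 3 it had 261, 148 and 276 counts in treated and 4, 6 and 5 counts in vehicle cells. All treated libraries lay above all vehicle libraries, and the treated libraries of day 35 above those of day 3. It lies under the vehicle level that the test asked for, so it was fitted with all 20030 genes that pass edgeR's expression filter (the wider fit, with 7.03% of differences called, 4.11% higher and 2.93% lower), where its response was 10.62 ± 0.45 at day 35 and 5.87 ± 0.37 at day 3 (difference 4.76 ± 0.76, adjusted p = 0.00117). After subtraction the difference was 3.64 and did not pass (adjusted p = 1). In CPM the treated cells held 73.7 ± 16.9 at day 35 and 8.66 ± 3.49 at day 3 (SD, n = 3 each). Over all genes of the wider fit the median difference was −0.291 and the median day 3 response 0.261. In the plain fit these medians were −0.0029 and −0.0207.

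The receptor gene itself rose in late cells, and in early cells by a call that did not hold after subtraction. *Vdr* stood at 18.1, 26.1 and 28.5 CPM in treated and 9.96, 7.73 and 5.26 CPM in vehicle cells of day 35, and at 9.20, 4.39 and 5.85 CPM in treated and 1.29, 4.11 and 2.43 CPM in vehicle cells of day 3. The groups did not overlap on either day. Its response was 1.71 ± 0.37 at day 35 (adjusted p = 0.00852) and 1.14 ± 0.38 at day 3 (adjusted p = 0.0463), and after subtraction the day 3 response was 0.56 (adjusted p = 0.439). The difference of 0.57 ± 0.52 did not pass (adjusted p = 0.527), and its 95% interval of −0.56 to 1.70 leaves room for either sign. *Rxra*, which encodes a partner of the receptor, rose at day 3 (0.82 ± 0.10) and had no response called at day 35 (0.11 ± 0.10). It had 98.6, 87.4 and 105 CPM in treated and 96.7, 95.1 and 84.1 CPM in vehicle cells of day 35, against 124.6, 120.3 and 123 CPM in treated and 59.9, 61.6 and 64.7 CPM in vehicle cells of day 3 (difference −0.71 ± 0.14, adjusted p = 0.00416). Among 9 tested genes of the vitamin D receptor and its metabolism and cofactors, *Rxra* was the 1 gene whose difference passed, and in the wider fit it did not.

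Osteopontin and RANKL, 2 textbook targets, both responded more in late cells, but in different ways. *Spp1*, which encodes the phosphoprotein osteopontin, had 2621, 3318 and 3652 CPM in treated and 307, 255 and 234 CPM in vehicle cells of day 35. At day 3 it had 149, 109 and 96.9 CPM in treated and 25.7, 43.4 and 28.3 CPM in vehicle cells. Treated libraries lay above vehicle libraries on each day, and the late vehicle cells already lay above the early treated ones. The response was 3.63 ± 0.22 at day 35 and 1.70 ± 0.21 at day 3 (difference 1.93 ± 0.29, adjusted p = 0.000605). *Tnfsf11*, which encodes RANKL, had 95.9, 83.1 and 79.4 CPM in treated and 11.4, 6.43 and 5.02 CPM in vehicle cells of day 35. In day 3 cells it had 10.9, 11.7 and 10.8 CPM with the hormone and 9.65, 7.68 and 10.5 CPM without. The 3 treated libraries of day 35 stood alone, and the other 9 lay between 5 and 12 CPM. Its response of 3.55 ± 0.24 at day 35 passed, that of 0.11 ± 0.22 at day 3 did not (adjusted p = 0.79), and the difference was 3.44 ± 0.32 (adjusted p = 1.54e-05).

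The decoy receptor of RANKL fell at both ages. *Tnfrsf11b*, which encodes osteoprotegerin, had 22.5, 16.9 and 18.8 CPM in treated and 87.4, 52.5 and 47.1 CPM in vehicle cells of day 35, and 12.3, 7.75 and 9.75 CPM in treated and 19.5, 50.0 and 29.1 CPM in vehicle cells of day 3. Treated libraries lay below vehicle libraries on each day, with responses of −1.64 ± 0.30 at day 35 and −1.89 ± 0.30 at day 3. The difference was 0.25 ± 0.41 (adjusted p = 0.741, 95% interval −0.64 to 1.15). Of 9 tested osteoclast-support genes 6 had a higher response at day 35 and none a lower one, with a median difference of 2.47, where 8.61% of all genes had a higher and 7.84% a lower one. The counts were also 6 and none after subtraction and with the covariate. Besides *Tnfsf11* they were the prostaglandin synthases *Ptgs2* and *Ptges* and the chemokines *Cxcl1*, *Ccl2* and *Ccl7*. *Ptges* rose on both days, with 320.0, 399 and 350.4 CPM in treated and 89.7, 73.2 and 73.9 CPM in vehicle cells of day 35, and 114, 122 and 126 CPM in treated and 46.8, 48.0 and 46.8 CPM in vehicle cells of day 3 (difference 1.02 ± 0.17, adjusted p = 0.00125). The chemokines fell in early cells, as *Cxcl1* did with 13.8, 15.5 and 14.3 CPM in treated and 69.5, 49.7 and 59.9 CPM in vehicle cells of day 3, while at day 35 it had 9.39, 3.83 and 6.61 CPM in treated and 4.41, 5.02 and 3.56 CPM in vehicle cells. *Cxcl1* passed the filter only in vehicle cells of day 3 and was favoured to fall there. *Csf1*, the macrophage growth factor gene, stayed under 5 CPM in every library and its difference did not pass (0.04 ± 0.78, adjusted p = 0.985).

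Genes that supply pyrophosphate, an inhibitor of mineralization, behaved differently from each other. *Enpp1*, whose enzyme makes pyrophosphate from nucleotides, had 44.7, 43.5 and 45.6 CPM in treated and 11.4, 4.74 and 4.80 CPM in vehicle cells of day 35, and 65.7, 51.4 and 45.5 CPM in treated and 10.0, 6.66 and 8.19 CPM in vehicle cells of day 3. All 6 treated libraries lay above all 6 vehicle libraries. It rose by 2.73 ± 0.29 at day 35 and 2.53 ± 0.28 at day 3, and the difference of 0.20 ± 0.38 did not pass (adjusted p = 0.789, 95% interval −0.63 to 1.02). *Ank*, whose product carries pyrophosphate out of the cell, moved in opposite directions. It had 162, 202 and 205 CPM in treated and 73.2, 56.2 and 48.2 CPM in vehicle cells of day 35, against 30.0, 18.8 and 16.8 CPM in treated and 23.5, 54.6 and 35.7 CPM in vehicle cells of day 3. At day 35 the groups lay apart and at day 3 they overlapped by 1 library of each. The responses were 1.73 ± 0.27 at day 35 and −0.96 ± 0.27 at day 3, and the difference was 2.69 ± 0.38 (adjusted p = 0.000383). The relative *Enpp3*, under the vehicle filter, responded with 5.32 ± 0.48 at day 35 and 3.09 ± 0.41 at day 3. Its difference of 2.22 ± 0.60 (adjusted p = 0.0365) did not pass after subtraction (3.45, adjusted p = 0.0596) or without any 1 of 7 libraries.

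**Figure D2:**
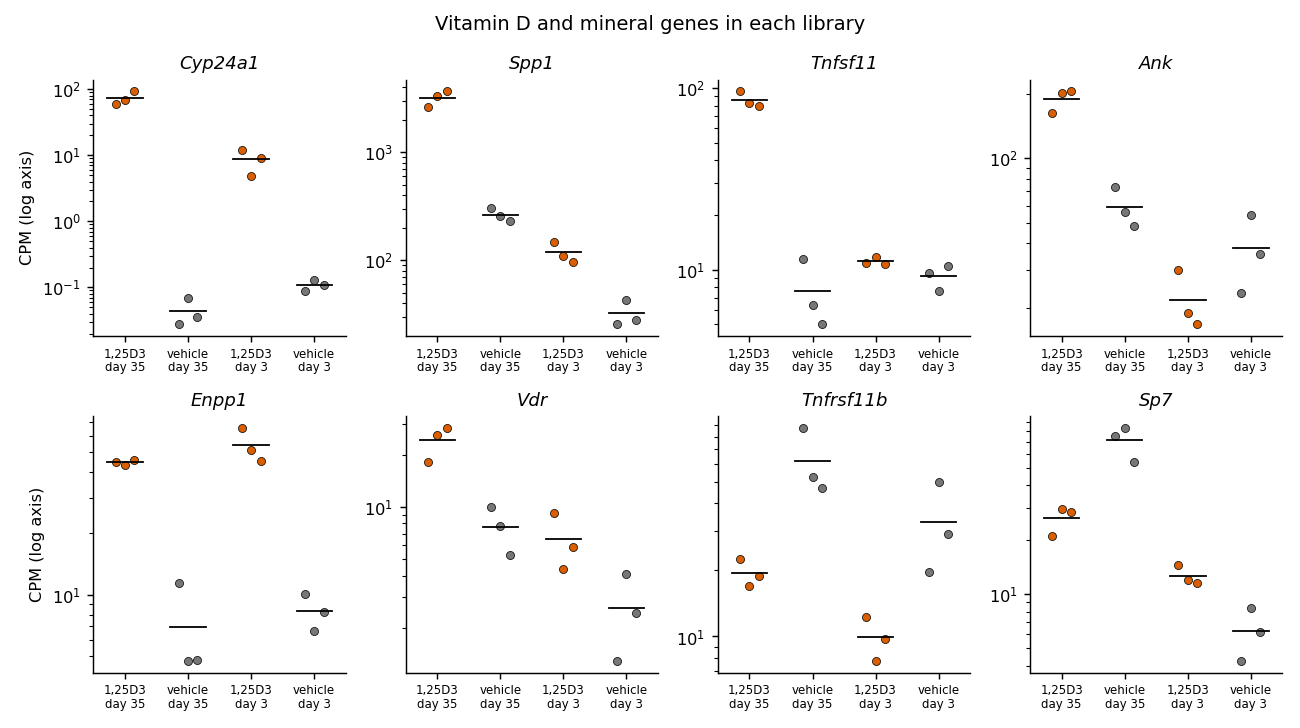
CPM on a log axis of 8 vitamin D and mineral genes in each library, with 1 point per library, a line at the group mean and a panel per gene. Treated cells are orange and vehicle cells grey, and *Tnfsf11* is high in the treated day 35 libraries while *Enpp1* is high in the treated libraries of both days.

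Of 17 tested genes of mineralization and phosphate, 5 had a higher and 3 a lower difference, with a median of 0.11, against 8.61% higher and 7.84% lower over all genes. After subtraction the counts were 6 higher and 0 lower. *Slc20a1*, a sodium-phosphate transporter gene, had 49.8, 42.7 and 51.3 CPM in treated and 76.7, 60.8 and 59.8 CPM in vehicle cells of day 35, against 86.2, 60.1 and 74.7 CPM in treated and 177, 271 and 201 CPM in vehicle cells of day 3. It fell at day 3 with a response of −1.72, the day 35 value of −0.42 did not pass, and the difference was 1.30 ± 0.22 (adjusted p = 0.00145). *Dmp1*, an acidic matrix protein of osteocytes, had 192, 260.0 and 270.0 CPM in treated and 115, 178 and 207 CPM in vehicle cells of day 35, and 2.13, 2.63 and 2.47 CPM in treated and 3.86, 6.92 and 5.10 CPM in vehicle cells of day 3. It fell at day 3 (−1.28 ± 0.28), the day 35 groups overlapped with no response called (0.55 ± 0.25), and the difference was 1.83 ± 0.38 (adjusted p = 0.00519). *Phex*, an endopeptidase gene of the phosphate axis, fell at day 35 (−0.69 ± 0.17) and did not pass at day 3 (−0.48 ± 0.17, adjusted p = 0.0562), with no difference called (−0.20 ± 0.24, adjusted p = 0.623, 95% interval −0.71 to 0.31). *Fgf23*, the osteocyte phosphate hormone, had 0, 20 and 30 counts in treated and 0, 1 and 0 counts in vehicle cells of day 35, and 8, 9 and 32 in treated and 0, 0 and 3 in vehicle cells of day 3, and neither response passed. *Galnt3*, whose enzyme protects that hormone from cleavage, had 4, 1 and 8 counts in vehicle cells of day 3 and passed the filter only in vehicle cells of day 35. Its difference of −4.56 was lost after subtraction (−2.42, adjusted p = 0.306).

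Some osteoblast genes were lowered in late cells. Of 18 tested, 7 fell and none rose at day 35, where 489 of all genes (5.32%) fell, and 6 had a lower and none a higher difference, with a median of −0.41. Over all genes 7.84% had a lower and 8.61% a higher difference. *Sp7*, which encodes the osteoblast transcription factor osterix, had 20.8, 29.5 and 28.6 CPM in treated and 75.6, 83.1 and 54.2 CPM in vehicle cells of day 35, against 14.5, 11.9 and 11.5 CPM in treated and 4.26, 8.37 and 6.15 CPM in vehicle cells of day 3. The hormone thus left *Sp7* below the vehicle range in late cells and above it in early cells, with responses of −1.39 ± 0.23 and 0.85 ± 0.23 and a difference of −2.24 ± 0.32 (adjusted p = 0.000465). *Panx3*, a channel gene of differentiating osteoblasts, had 20.9, 28.2 and 32.0 CPM in treated and 149, 100.1 and 71.3 CPM in vehicle cells of day 35. At day 3 it had 5.98, 3.66 and 6.21 CPM in treated and 2.26, 4.50 and 4.09 CPM in vehicle cells, with overlapping groups (difference −2.31 ± 0.41, adjusted p = 0.00212). *Sp7* and *Panx3* passed the filter only in vehicle cells of day 35 and were favoured to fall there. Without day 35 vehicle replicate 2 the 7 falls of day 35 became 4. After subtraction 2 of the 6, *Sp7* and *Panx3*, still passed, and 1 other gene of the list, *Bmp2*, had a higher difference. The list's rises at day 3 numbered 4 before and 0 after subtraction, where that of *Sp7* was 0.72 (adjusted p = 0.0535). The other 4 were *Pth1r*, *Bmp3*, *Ifitm5* and *Ibsp*.

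For *Pth1r*, the parathyroid hormone receptor gene, the vehicle cells of day 3 held 8, 3 and 18 counts, and the difference of −4.41 became −2.88 (adjusted p = 0.24). It too passed the filter only in vehicle cells of day 35. *Ibsp*, bone sialoprotein, had 5127, 5158 and 5143 CPM in treated and 10818, 13329 and 15159 CPM in vehicle cells of day 35. Its responses were −1.32 at day 35 and −0.53 at day 3, both called as falls, and the difference of −0.79 ± 0.25 (adjusted p = 0.0488) did not pass without any 1 of 10 libraries. *Col1a1* (difference 0.09 ± 0.50, adjusted p = 0.928), *Alpl* (−0.56 ± 0.37, adjusted p = 0.365), *Bglap* (−0.75 ± 0.40, adjusted p = 0.246) and *Bglap2* (−0.59 ± 0.39, adjusted p = 0.362) did not pass. Their responses did not pass on either day. With 1 library left out the difference passed for *Bglap* (−1.09, adjusted p = 0.00858) and *Bglap2* (−0.90, adjusted p = 0.0436), each without day 35 vehicle replicate 1, and for *Alpl* (−0.96, adjusted p = 0.0387) without day 3 vehicle replicate 2. *Bglap* and *Bglap2* are near-identical osteocalcin genes whose reads may have been split between them. *Runx2*, the master transcription factor gene of osteoblasts, was under the filter and did not pass (−0.78 ± 0.45, adjusted p = 0.303).

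Wnt signalling, which drives bone formation, was touched through single genes. *Notum*, a secreted enzyme that inactivates Wnt ligands, had 22.0, 35.6 and 34.7 CPM in treated and 2.75, 2.71 and 2.92 CPM in vehicle cells of day 35. At day 3 it had 4.44, 3.79 and 3.34 CPM in treated and 2.99, 3.37 and 3.44 CPM in vehicle cells. The late treated libraries stood alone, and the difference was 3.57 ± 0.30 (adjusted p = 3.61e-06) in the wider fit. *Wnt5a*, a noncanonical ligand gene, had 453, 412 and 473 CPM in treated and 279, 241 and 226 CPM in vehicle cells of day 35, and no response called at day 3 (difference 0.90 ± 0.16, adjusted p = 0.00204, not called with the covariate). The co-receptor gene *Lrp5* did not pass on either day, with a difference of −0.12 ± 0.39 (adjusted p = 0.885, 95% interval −0.97 to 0.73). *Sost*, which encodes the osteocyte Wnt inhibitor sclerostin, had 0, 12 and 20 counts in treated and 68, 228 and 162 counts in vehicle cells of day 35, against 16, 18 and 1 in treated and 0, 0 and 0 in vehicle cells of day 3. Its day 35 response did not pass (adjusted p = 0.0562). *Dkk1*, another secreted Wnt inhibitor, had 4, 12 and 45 counts in treated and 107, 208 and 82 counts in vehicle cells of day 35, and 49, 36 and 36 in treated and 9, 0 and 0 in vehicle cells of day 3. Both of these differences were called in the wider fit and neither after subtraction. Of 25 Wnt genes tested 5 had a higher and 3 a lower difference, with a median of −0.08, against 8.61% and 7.84% of all genes. The counts were 5 and 1 after subtraction and 2 and 1 with the covariate.

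Several genes were raised by the hormone in late cells and lowered in early cells. *Nes*, which encodes the intermediate filament nestin, had 123, 139 and 132 CPM in treated and 9.29, 12.7 and 13.5 CPM in vehicle cells of day 35. It had 55.5, 57.4 and 65.1 CPM in treated and 86.5, 105 and 79.0 CPM in vehicle cells of day 3. The response passed at both days with opposite signs, 3.51 ± 0.19 and −0.76 ± 0.17, and the difference was 4.27 ± 0.25 (adjusted p = 5.73e-07). *Dusp6*, a phosphatase gene that switches off the kinase ERK, had 220.2, 204 and 208 CPM in treated and 76.5, 54.1 and 50.4 CPM in vehicle cells of day 35, against 121, 151 and 132 CPM in treated and 304, 321 and 306 CPM in vehicle cells of day 3 (difference 3.21 ± 0.20, adjusted p = 8.32e-07). Its relative *Dusp5* (4.93 ± 0.54, adjusted p = 5.31e-05) and *Fam110c* (5.07 ± 0.65, adjusted p = 0.000203) passed the filter only in vehicle cells of day 3. At lower levels, under 17 CPM in each library, they showed the same reversal. The IL-33 receptor gene *Il1rl1* did so too, at 64.5, 57.0 and 64.3 CPM in treated and 18.7, 9.21 and 9.89 CPM in vehicle cells of day 35, and 25.3, 26.2 and 31.6 CPM in treated and 103, 201 and 139 CPM in vehicle cells of day 3 (difference 4.91 ± 0.37, adjusted p = 2.48e-06). The transcription factor genes *Cebpb* (1.62 ± 0.25, adjusted p = 0.000662) and *Cebpd* (1.47 ± 0.27, adjusted p = 0.00257) rose at day 35 and had no response called at day 3.

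A share of the interferon-stimulated genes, which cells switch on against viruses, was raised by the hormone in late cells. Of 31 tested, 11 rose and none fell at day 35, where 603 of all genes (6.56%) rose, while 3 rose and 2 fell at day 3. The difference was higher for 10 and lower for none, with a median of 0.52, and higher for 7 after subtraction, 7 with the covariate and 6 without day 35 hormone replicate 2. Over all genes 8.61% had a higher and 7.84% a lower difference. *Rsad2*, the antiviral enzyme viperin, had 15.2, 23.0 and 20.8 CPM in treated and 2.36, 2.47 and 2.38 CPM in vehicle cells of day 35, against 38.8, 34.5 and 38.4 CPM in treated and 64.8, 58.8 and 71.9 CPM in vehicle cells of day 3. Thus treated late cells stayed below both early groups. *Rsad2* passed the filter only in vehicle cells of day 3. Its difference was 4.04 ± 0.25 (adjusted p = 6.99e-07). *Ifit1*, which encodes a sensor of viral RNA, had 73.3, 61.4 and 58.1 CPM in treated and 34.9, 32.7 and 23.3 CPM in vehicle cells of day 35, and 406, 363 and 381 CPM in treated and 307, 338 and 308 CPM in vehicle cells of day 3 (difference 1.01 ± 0.18, adjusted p = 0.00232). The guanylate-binding protein gene *Gbp3* (1.76 ± 0.20, adjusted p = 7.38e-05), *Gbp2* (1.20 ± 0.19, adjusted p = 0.00088), *Ifit3* (0.82 ± 0.18, adjusted p = 0.00792) and the ubiquitin-like *Isg15* (1.57 ± 0.42, adjusted p = 0.0233) also had higher responses at day 35. *Isg15* did not pass without day 3 hormone replicate 2 or 3 or day 35 hormone replicate 2 (1.40 to 1.52), and *Ifit3* has a close copy with which reads may be shared. The class II antigen genes *H2-Aa*, *H2-Ab1* and *H2-Eb1* had no response called on either day.

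Promoters of 4 of these genes are shown because several interferon genes rose in late cells and many carry the same letters. The search was for the interferon-stimulated response element, 2 GAAA blocks separated by any 2 bases, on both strands and with overlapping matches allowed, in 250 bases before and 50 after each start in RefSeq (GRCm38.p6). The motif was chosen after the values were seen. It stands in 3.44% of 32851 promoters, which belong to 3.99% of the 27025 genes in the table, in 14 of the 24 tested interferon genes that have a promoter in the table and in 8 of 9 with a higher response at day 35. The 250 bases before the start of each gene are given 5′ to 3′ on the gene's strand, with the matches in capitals. *Rsad2* (first match starting at −120 from the start) lies at chr12:26456453-26456702, - strand. *Isg15* (3 overlapping matches, from −78) lies at chr4:156200819-156201068, - strand. *Ifit1* (2 matches, at −104 and −85) lies at chr19:34640639-34640888, + strand, and *Ifit3* (2 matches, at −156 and −122) at chr19:34583279-34583528, + strand.
Rsad2: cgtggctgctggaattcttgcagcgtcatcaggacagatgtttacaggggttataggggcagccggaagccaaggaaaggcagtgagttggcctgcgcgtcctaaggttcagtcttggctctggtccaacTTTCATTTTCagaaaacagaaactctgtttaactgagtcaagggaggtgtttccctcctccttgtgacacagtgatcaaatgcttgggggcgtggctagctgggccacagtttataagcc
Isg15: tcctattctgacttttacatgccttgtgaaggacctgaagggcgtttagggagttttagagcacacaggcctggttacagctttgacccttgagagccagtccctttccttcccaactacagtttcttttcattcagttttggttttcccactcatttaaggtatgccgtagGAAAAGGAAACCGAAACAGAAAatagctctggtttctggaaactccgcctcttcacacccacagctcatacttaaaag
Ifit1: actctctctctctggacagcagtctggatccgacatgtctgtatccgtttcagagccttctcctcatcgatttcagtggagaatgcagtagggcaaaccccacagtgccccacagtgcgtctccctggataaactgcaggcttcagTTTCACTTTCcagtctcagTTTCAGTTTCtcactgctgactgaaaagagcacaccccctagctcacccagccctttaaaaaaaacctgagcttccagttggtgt
Ifit3: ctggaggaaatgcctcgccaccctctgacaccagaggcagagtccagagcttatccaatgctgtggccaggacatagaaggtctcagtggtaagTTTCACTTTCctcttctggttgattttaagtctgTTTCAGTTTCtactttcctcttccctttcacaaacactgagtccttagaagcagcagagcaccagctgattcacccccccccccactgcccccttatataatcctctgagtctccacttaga
A direct repeat of vitamin D receptor half-sites spaced by 3 bases, 2 NGNTCA blocks on either strand, stood in 0.700% of all promoters, those of 0.814% of genes, and in 0 of 106 genes of the named set that have a promoter in the table. These short windows do not cover distal sites.

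Genes of the immediate response to growth factors and stress were lower in treated than in vehicle cells of day 3. Of 21 tested immediate-early genes all 21 fell at day 3, where 977 of all genes (10.6%) fell, with a median response of −2.52. At day 35, 5 rose and 2 fell, with a median of 0.04. The difference was higher for 19 and lower for none, against 8.61% and 7.84% of all genes. It was higher for 18 after subtraction and for 15 with the covariate, where 17 fell at day 3. Members that passed the filter only in vehicle cells of day 3, such as *Nr4a1*, were favoured to fall there. *Ctgf*, a matricellular growth factor of the CCN family, had 318, 339.9 and 341 CPM in treated and 139, 109 and 111 CPM in vehicle cells of day 35. It had 21.9, 12.4 and 14.5 CPM in treated and 792, 2181 and 1276 CPM in vehicle cells of day 3. The hormone raised it in late cells (1.51 ± 0.28) and lowered it in early cells (−6.61 ± 0.35), a difference of 8.12 ± 0.44 (adjusted p = 3.25e-07).

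Within this group the vehicle cells of day 3 carried the high level. *Maff*, a small Maf transcription factor gene, had 22.5, 29.1 and 33.6 CPM in treated and 14.5, 14.0 and 13.9 CPM in vehicle cells of day 35, against 6.89, 6.02 and 6.28 CPM in treated and 156, 180.2 and 141 CPM in vehicle cells of day 3 (difference 5.84 ± 0.23, adjusted p = 1.64e-08). *Atf3*, a stress-induced repressor, had 3.31, 2.46 and 3.37 CPM in treated and 85.2, 114 and 97.7 CPM in vehicle cells of day 3 and had no response called at day 35 (difference 4.69 ± 0.31, adjusted p = 1.02e-06). The orphan receptor gene *Nr4a1* (5.47 ± 0.74, adjusted p = 0.000287), the kinase-like *Trib1* (5.58 ± 0.66, adjusted p = 0.000108), *Fosb* (4.47 ± 0.65, adjusted p = 0.000511) and *Jun* (2.36 ± 0.16, adjusted p = 1e-06) also fell at day 3 and had higher differences. *Nr4a1* and *Trib1* passed the filter only in vehicle cells of day 3. The exceptions in the list were *Klf4*, which fell on both days (−1.68 ± 0.28 and −1.86 ± 0.28), and *Jund*, whose difference did not pass (0.77 ± 0.34, adjusted p = 0.152).

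The prostaglandin synthase gene *Ptgs2* and 3 genes of the EGF family and its receptors also fell in early cells. *Ptgs2*, cyclooxygenase 2, had 30.3, 27.1 and 28.6 CPM in treated and 36.0, 19.1 and 19.2 CPM in vehicle cells of day 35, against 27.1, 25.7 and 26.4 CPM in treated and 1425, 1606 and 1779 CPM in vehicle cells of day 3. The vehicle libraries of day 3 were the only ones above 40 CPM, and the response was 0.26 ± 0.18 at day 35, which did not pass, and −6.09 ± 0.22 at day 3 (difference 6.35 ± 0.28, adjusted p = 3.63e-08). *Errfi1*, a feedback inhibitor of the EGF receptor, had 95.3, 88.8 and 94.2 CPM in treated and 1773, 2220.2 and 2093 CPM in vehicle cells of day 3 (difference 5.18 ± 0.24, adjusted p = 6.65e-08). The receptor's ligands *Hbegf* (5.44 ± 0.34, adjusted p = 8.63e-07) and *Ereg* (5.09 ± 0.46, adjusted p = 1.3e-05) fell at day 3 and had no response called at day 35. *Egfr* itself rose on both days (0.82 ± 0.18 and 0.65 ± 0.18), and its difference did not pass (0.17 ± 0.25, adjusted p = 0.712). Of 6 EGF family genes tested, 3 had a higher difference in the plain, the subtracted and the covariate fit, against 8.61% of all genes in the plain fit.

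**Figure D3:**
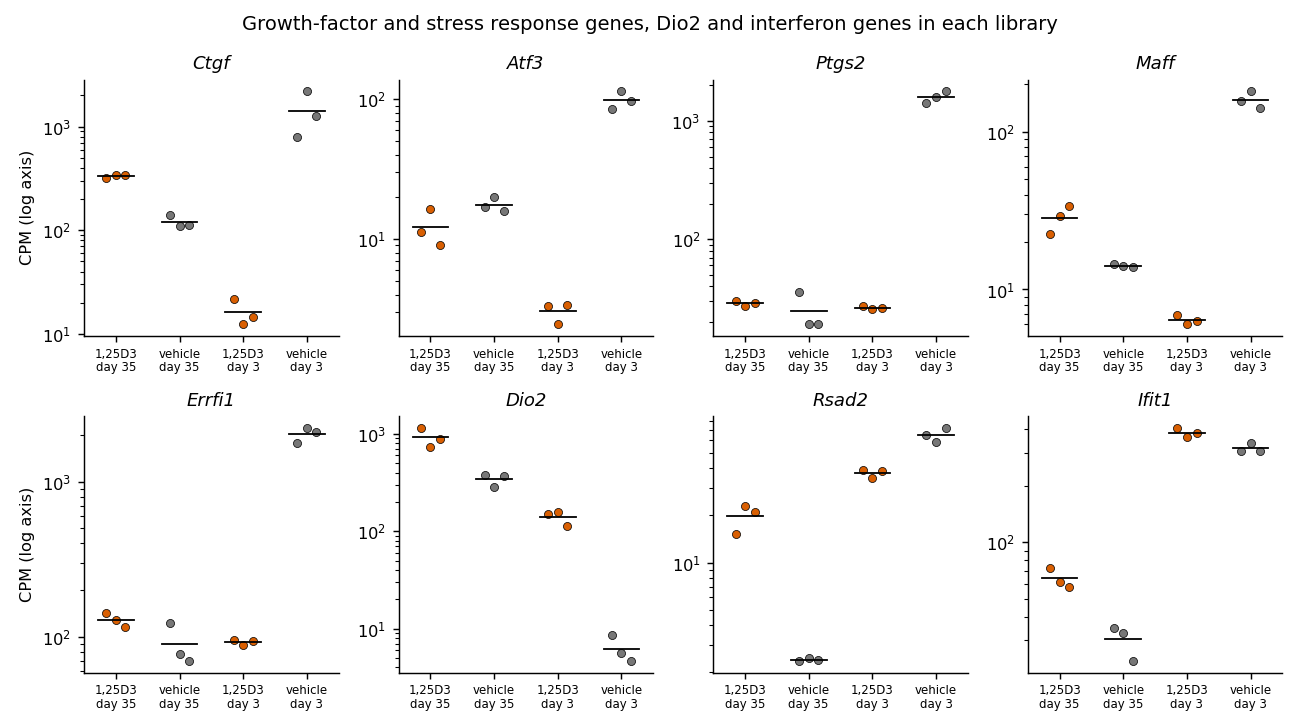
CPM on a log axis of 8 genes in each library, with 1 point per library and a line at the group mean. *Ctgf*, *Atf3*, *Ptgs2*, *Maff* and *Errfi1* are high in vehicle cells of day 3 and low in treated cells of that day, *Dio2* is lowest in vehicle cells of day 3, and *Rsad2* and *Ifit1* are lowest in vehicle cells of day 35.

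Some TGF-beta and activin genes, and some proteases of the matrix, also responded differently by age. Of 23 BMP and TGF-beta genes tested 10 had a higher and 3 a lower difference, with a median of 0.67, and 11 fell at day 3. Over all genes 8.61% had a higher and 7.84% a lower difference, and 10.6% fell at day 3. With the covariate 7 of the 23 had a higher and 2 a lower difference, and 7 fell at day 3. *Inhba*, which encodes the activin A subunit, had 23.0, 20.5 and 22.7 CPM in treated and 44.1, 39.6 and 41.6 CPM in vehicle cells of day 35, against 24.7, 18.1 and 13.3 CPM in treated and 233, 349 and 259 CPM in vehicle cells of day 3. It fell on both days and by far more in early cells (−0.89 ± 0.18 and −4.08 ± 0.20, difference 3.19 ± 0.26, adjusted p = 5.14e-06). *Tgfb3* rose at day 35 and fell at day 3 (0.73 ± 0.14 and −0.70 ± 0.14, difference 1.43 ± 0.20, adjusted p = 0.000331). *Bmp4* went the other way, with a rise at day 3 (0.77 ± 0.13) and a difference of −1.05 ± 0.18 (adjusted p = 0.00147). Among 24 matrix protease genes 7 had a higher and 1 a lower difference, and with the covariate 4 had a higher and 1 a lower one. *Adamts1*, a proteoglycan-cleaving protease gene, had 1130.0, 902 and 1039 CPM in treated and 411, 346 and 356 CPM in vehicle cells of day 35, and 1967, 1951 and 1962 CPM in treated and 4339, 3653 and 4536 CPM in vehicle cells of day 3 (difference 2.75 ± 0.18, adjusted p = 8.8e-07). The collagenase gene *Mmp13* rose on both days (1.17 ± 0.17 and 0.61 ± 0.17), and its difference did not pass (0.56 ± 0.24, adjusted p = 0.148). The 1 gene with a lower difference was *Prss35*, a secreted serine protease-like gene, at 118, 81.9 and 98.4 CPM in treated and 690.5, 649 and 618 CPM in vehicle cells of day 35 (difference −1.61 ± 0.21, adjusted p = 0.000198).

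Some genes were raised by the hormone more in early cells. *Dio2*, whose enzyme activates thyroid hormone, had 1143, 739 and 885 CPM in treated and 376, 286 and 368 CPM in vehicle cells of day 35, against 149, 158 and 112 CPM in treated and 8.52, 5.58 and 4.67 CPM in vehicle cells of day 3. The hormone raised it on both days, from a far lower baseline in early cells, with responses of 1.46 ± 0.23 and 4.31 ± 0.26 (difference −2.85 ± 0.33, adjusted p = 8.08e-05). Complement component *C3* rose in the same way, at 166, 183 and 228 CPM in treated and 20.4, 10.5 and 11.0 CPM in vehicle cells of day 35 and 77.5, 45.2 and 45.5 CPM in treated and 0.599, 0.411 and 1.35 CPM in vehicle cells of day 3 (difference −2.14 ± 0.49, adjusted p = 0.00977). *Dio2* and *C3* were chosen after their values were seen. *Rcor2*, a corepressor gene, fell in late and rose in early cells, with 7.05, 7.10 and 7.75 CPM in treated and 27.2, 34.3 and 30.3 CPM in vehicle cells of day 35, and 5.39, 2.93 and 5.38 CPM in treated and 0.554, 0.281 and 1.05 CPM in vehicle cells of day 3 (difference −4.72 ± 0.50, adjusted p = 4.19e-05). The transcription factor gene *Sp6* had the same form (−3.05 ± 0.38, adjusted p = 0.000174). *Gpr133* (−7.19 ± 0.73, adjusted p = 3.09e-05) and *Gpr141* (−4.94 ± 0.71, adjusted p = 0.000458), both G protein-coupled receptor genes, stayed under 6 CPM at day 3, where they rose. The day 3 rise of *Gpr141* did not pass after subtraction (1.73, adjusted p = 0.119). *Mup9* and *Gm6181* also belong here by the size of their differences (−3.73 and −3.19), but both have near-identical copies elsewhere, so that their reads are uncertain. *Mup9* had 31, 0 and 1 counts in vehicle cells of day 3, and without replicate 1 of that group its difference was −7.84. With the covariate neither *Mup9* nor *Gm6181* passed. All genes of this group, *Dio2* to *Gm6181*, passed the filter only in vehicle cells of day 35, which favoured lower differences.

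In 127 genes the larger response was a fall in late cells, and for 113 of them that fall was called. In 18 both responses were called with opposite signs. *Plek*, the platelet protein pleckstrin, had 6.70, 6.82 and 8.25 CPM in treated and 29.5, 35.0 and 36.3 CPM in vehicle cells of day 35, against 4.12, 4.66 and 5.18 CPM in treated and 1.84, 0.346 and 0.989 CPM in vehicle cells of day 3 (difference −4.15 ± 0.56, adjusted p = 0.000296). *Grb10*, an adaptor that restrains insulin signalling, had 7.86, 6.58 and 6.17 CPM in treated and 25.4, 24.2 and 22.6 CPM in vehicle cells of day 35, and 23.7, 24.1 and 14.8 CPM in treated and 11.2, 9.64 and 12.6 CPM in vehicle cells of day 3 (difference −2.51 ± 0.28, adjusted p = 5.98e-05). In these 2 genes the treated libraries lay below vehicle at day 35 and above it at day 3. The sugar transporter gene *Slc2a13* (−3.61 ± 0.43, adjusted p = 0.000117), the estrogen-binding receptor gene *Gpr30* (−3.57 ± 0.64, adjusted p = 0.00206) and *Cmya5* (−2.56 ± 0.42, adjusted p = 0.00116) had the same signs. After subtraction the difference passed for all 5 genes, while none of their day 3 rises did, with 1.14 for *Plek* (adjusted p = 0.186), 0.61 for *Grb10* (adjusted p = 0.0895), 0.46 for *Slc2a13* (adjusted p = 0.519), 1.45 for *Gpr30* (adjusted p = 0.0638) and 0.60 for *Cmya5* (adjusted p = 0.306). Of the 5 genes, all but *Grb10* passed the filter only in vehicle cells of day 35 and were favoured to fall there. *Lars2*, a mitochondrial leucyl-tRNA synthetase gene, had 37.4, 20.3 and 33.9 CPM in treated and 36.0, 1586 and 21.4 CPM in vehicle cells of day 35, and 49.7, 408 and 108 CPM in treated and 15.0, 18.2 and 17.8 CPM in vehicle cells of day 3. Its day 35 response did not pass (adjusted p = 0.0639). The difference of −7.50 rests on vehicle replicate 2 of day 35 and was −3.19 without it (adjusted p = 0.0344), and it did not pass with the covariate.

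A share of the endoplasmic reticulum stress genes fell in late cells. Of 22 tested 12 fell and none rose at day 35, where 5.32% of all genes fell, and 6 fell and none rose at day 3, where 10.6% did. Without day 35 hormone replicate 2 the day 35 count was 5, and without day 35 vehicle replicate 2 it was 5 as well. *Hspa5*, the chaperone BiP, had 187, 198 and 191 CPM in treated and 436, 439 and 454 CPM in vehicle cells of day 35, against 131, 138 and 91.1 CPM in treated and 126, 134 and 157 CPM in vehicle cells of day 3. The late groups lay far apart and the early groups overlapped. The difference was called for *Hspa5* (−0.80 ± 0.21, adjusted p = 0.0201), *Herpud1* (−0.80 ± 0.18, adjusted p = 0.0102) and *Ddit3* (−1.15 ± 0.30, adjusted p = 0.0195) with a negative sign and for the cochaperone gene *Dnajb9* with a positive one (0.99 ± 0.25, adjusted p = 0.018). With the covariate no gene of the list passed edgeR's test of the difference, and 3 had an unadjusted p below 0.05. Leaving out 1 library ended the call for *Hspa5* (without day 3 hormone replicate 2), for *Ddit3* (without day 35 hormone replicate 1 or day 35 vehicle replicate 2 or 3) and for *Dnajb9* (without day 35 hormone replicate 3 or day 35 vehicle replicate 2).

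Other genes responded on both days with no called difference. Ranked by the smaller of the 2 responses, the first 3 of the raised genes among these were *Hp*, *Enpp1* and *Inmt*, and the first 3 of the lowered ones *Fgd3*, *Chac1* and *Klf4*, a ranking made after the values were seen. *Dio3*, next among the raised genes, encodes an enzyme that inactivates thyroid hormone. It had 44.0, 44.3 and 38.9 CPM in treated and 7.74, 8.18 and 5.80 CPM in vehicle cells of day 35, and 26.1, 31.5 and 31.6 CPM in treated and 5.77, 5.71 and 5.61 CPM in vehicle cells of day 3. The groups lay apart on each day, and the difference of 0.37 ± 0.22 did not pass (adjusted p = 0.311, 95% interval −0.12 to 0.85). The methyltransferase gene *Inmt* rose by 2.95 at day 35 and 2.34 at day 3, and *Hp*, the hemoglobin-binding protein haptoglobin, by 2.66 and 3.65. *Hp* had 9.79, 7.39 and 37.5 CPM in treated cells of day 3, where replicate 3 was the highest. That library also had the highest summed adipocyte markers, which ran between 3.13 and 195 CPM in treated and between 1.72 and 3.76 CPM in vehicle cells of day 3, and their part in *Hp* was not tested. *Chac1*, a glutathione-degrading enzyme gene, fell with responses of −1.75 at day 35 and −2.00 at day 3, and *Fgd3* with −1.91 at day 35 and −2.08 at day 3. After subtraction *Fgd3* had a called difference (8.98, adjusted p = 0.00125), and the day 35 fall of *Chac1* did not pass (adjusted p = 0.144).

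Below the vehicle filter lay 589 genes that reached 5 CPM in all 3 libraries of a hormone group. This choice favoured a rise with the hormone. Those named were ranked by treated level at day 35 or by the size of the difference. Their adjusted p-values are therefore a description and no support. The 6 with the highest treated level began with *Cyp24a1* and included *Elovl7*, a fatty acid elongase gene, at 30.2, 36.6 and 32.6 CPM in treated and 3.08, 2.51 and 2.10 CPM in vehicle cells of day 35, and 16.7, 15.5 and 16.6 CPM in treated and 5.32, 2.12 and 6.90 CPM in vehicle cells of day 3 (difference 2.29 ± 0.44, adjusted p = 0.00461). *Dhdpsl* (2.69 ± 0.35, adjusted p = 0.000195), *Gm10471* (2.75 ± 0.57, adjusted p = 0.00825) and *Gm10220* (1.69 ± 0.35, adjusted p = 0.00864) had higher responses at day 35, and *Enpp6*, a choline-releasing phosphodiesterase gene, did not pass (1.30 ± 0.82, adjusted p = 0.351). The kinin receptor gene *Bdkrb2* had 9.26, 13.8 and 14.7 CPM in treated and 0.277, 0.275 and 0.534 CPM in vehicle cells of day 35, and no response called at day 3 (difference 4.90 ± 0.58, adjusted p = 7.99e-05). Among the 589, the largest negative differences belonged to *Fut9* and to *Gm15114*, *Ott*, *Gm15085* and *Gm15093*, near-identical copies that cannot be told apart. Their treated day 3 libraries and day 35 hormone replicate 2 were the highest, the libraries with the most background, and none passed after subtraction. With the covariate the differences of *Elovl7*, *Gm10471* and *Gm10220* did not pass. *Trpv6*, a calcium channel gene, did not pass (0.61 ± 1.15, adjusted p = 0.785).

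**Figure D4:**
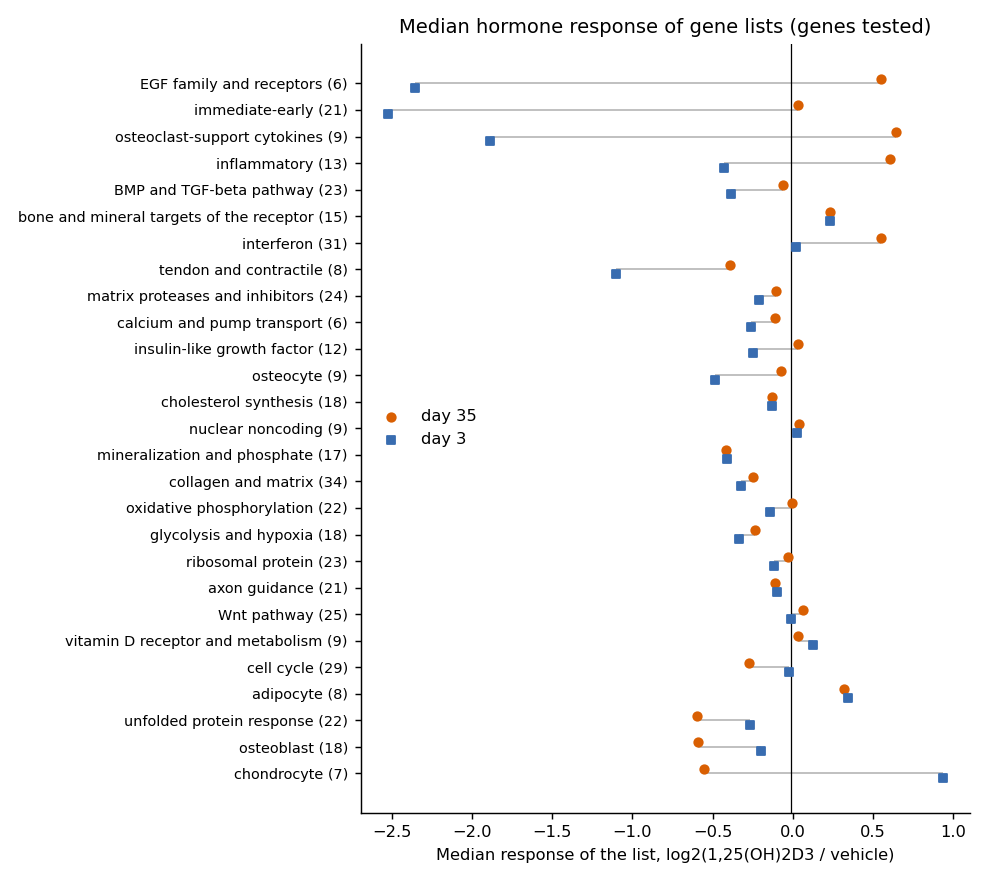
Median response of each gene list with 6 or more tested genes at day 35 (circles) and day 3 (squares), in log2(1,25(OH)2D3 / vehicle), with the number of genes tested in brackets and a line at the all-gene median of day 35. The longest gaps are those of the EGF family, immediate-early and osteoclast-support lists, where the day 3 median is below −1.8.

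Oxidative phosphorylation and ribosomal protein genes gave no calls. None of 22 oxidative phosphorylation and none of 23 ribosomal protein genes had a called response on either day or a called difference, with medians of the difference of 0.09 and 0.02. By edgeR's unadjusted p below 0.05, 1 oxidative phosphorylation gene and no ribosomal protein gene had a difference, and DESeq2 also called none of either list. Of 29 cell cycle genes 5 fell and none rose at day 35 (5.32% of all genes fell), 2 fell without vehicle replicate 2 and 3 without hormone replicate 2 of that day, and 2 had a lower difference, *Mcm2* (−0.46 ± 0.15, adjusted p = 0.0475) and *Cenpf* (−0.56 ± 0.18, adjusted p = 0.048), each lost without any 1 of 10 libraries. Cholesterol synthesis gave 2 higher of 18, among them the sterol reductase gene *Hsd17b7* at 223, 219 and 215 CPM in treated and 93.2, 61.8 and 53.1 CPM in vehicle cells of day 35 (difference 1.74 ± 0.22, adjusted p = 0.00019). In the glycolysis and hypoxia list 3 of 18 were higher and 1 lower. Over all genes 8.61% had a higher and 7.84% a lower difference. With the covariate 1 gene of the cholesterol list was higher, and in the glycolysis list 1 was higher and none lower. The axon guidance gene *Epha4*, an ephrin receptor, rose on both days and more in late cells, at 879, 819 and 795 CPM in treated and 124, 112 and 110.3 CPM in vehicle cells of day 35, and 472, 572 and 559 CPM in treated and 203, 156 and 183 CPM in vehicle cells of day 3 (difference 1.48 ± 0.19, adjusted p = 0.000212).

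The day 3 response ran along the change that untreated cells undergo between day 3 and day 7. The untreated values are the deposited RPKM of another experiment with another library kit, so they serve as a description. The 6016 genes used held at least 2 RPKM in at least 1 untreated library of day 3 or day 7. Across them the day 3 response and the untreated log2 change (day 7 over day 3, with a pseudocount of 0.5 RPKM) correlated at r = 0.577 (rho = 0.489). The day 35 response did so at r = 0.0267 (rho = 0.0312). Genes are not independent replicates, and no p is given. Of 205 genes raised more at day 3, 191 (93.2%) were higher at untreated day 7 than at day 3, and of 356 lowered more at day 3, 291 (81.7%) were lower. Over all 6016 genes 64.8% were higher and 35.2% lower.

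Some single genes show the same pattern and others do not. *Ctgf* was listed at 10.3, 10.7 and 8.64 RPKM in untreated day 7 cells and 211, 254 and 248 RPKM in untreated day 3 cells. For *Ptgs2* the values were 3.07, 3.32 and 3.44 RPKM at day 7 and 51.5, 62.6 and 62.1 RPKM at day 3. *Dio2* went the other way, at 14.2, 11.0 and 14.3 RPKM at day 7 and 0.827, 0.583 and 0.283 RPKM at day 3. *Spp1* was listed at 14.3, 16.0 and 20.8 RPKM at day 7 and 4.49, 2.59 and 3.89 RPKM at day 3. No group of 3 untreated libraries overlapped the other in these 4 genes. By contrast, *Grb10* rose with the hormone at day 3 (0.73) but had 3.72, 2.94 and 2.40 RPKM at untreated day 7 and 6.41, 5.71 and 4.96 RPKM at day 3. *Tnfrsf11b* fell with the hormone at day 3 (−1.89), and its untreated groups overlapped, at 16.1, 15.2 and 19.0 RPKM at day 7 and 11.9, 16.3 and 20.3 RPKM at day 3. Of the genes raised more at day 35, 49.4% were higher at untreated day 7. Why the early response and the early course of untreated cells resemble each other was not tested.

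**Figure D5:**
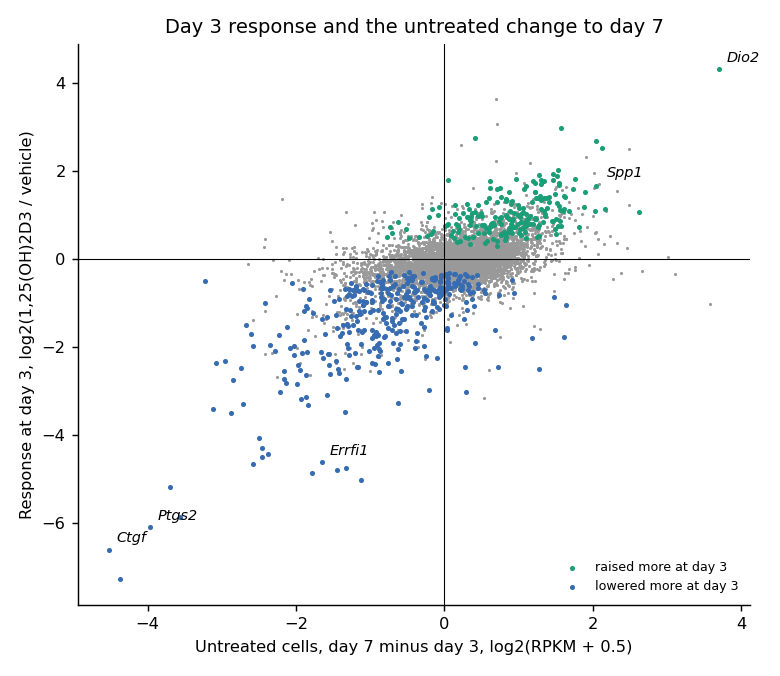
Hormone response at day 3 (vertical axis, log2(1,25(OH)2D3 / vehicle)) against the change of untreated cells from day 3 to day 7 (horizontal axis, log2(RPKM + 0.5)) for 6016 genes. Green and blue points mark genes raised or lowered more at day 3, most of which lie in the upper right and lower left.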

How the data were processed

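RNA-seq libraries of 12 cultures were analysed, 3 per group, and each is described as a biological replicate in the series' design text. The values are raw counts per gene, deposited by the authors in files named for RPKM, which hold whole numbers. Reads were aligned with TopHat to mm9 per the submitters' processing notes, and the counting step is not given in the sources used here. Untreated values are RPKM computed by the authors, used only as a description. Rows were summed per symbol, and 27 symbols turned into dates, with at most 0.293% of counts, were left out. Genes with at least 5 CPM in all 3 libraries of a vehicle group were tested with edgeR 4.0.16 (limma 3.58.1, R 4.3.3; TMM scaling), and DESeq2 1.42.0 was an alternative. Genes under that filter were fitted with all genes passing filterByExpr. The background per kilobase came from 1116 olfactory receptor genes. The covariate fit was added after the data were seen. Fits were tested on simulated data. Named genes are the 6 with the largest difference in each of the 4 classes, a fixed list of vitamin D and bone genes, members of each gene list with the smallest adjusted p, and 6 genes under the filter by level and by difference. One gene that this rule picks is not reported here. Others named from the gene lists illustrate their counts and were chosen after their values were seen. Members, gene lists and tests were chosen with earlier results of these data known.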

Additional observations from a re-analysis of the deposited data

Results flagged for a closer look

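The following log2 differences between the hormone responses of day 35 and day 3 passed edgeR's test of the difference itself. Among genes raised more at day 35 they were 5.07 for *Fam110c*, 4.93 for *Dusp5*, 4.27 for *Nes*, 4.04 for *Rsad2*, 3.44 for *Tnfsf11* and 3.21 for *Dusp6*. Among genes lowered more at day 35 they were −7.50 for *Lars2*, −4.15 for *Plek*, −3.61 for *Slc2a13*, −3.57 for *Gpr30*, −2.56 for *Cmya5* and −2.51 for *Grb10*. Among genes raised more at day 3 they were −7.19 for *Gpr133*, −4.94 for *Gpr141*, −4.72 for *Rcor2*, −3.73 for *Mup9*, −3.19 for *Gm6181*, −3.05 for *Sp6*, −2.85 for *Dio2* and −2.14 for *C3*. Among genes lowered more at day 3 they were 8.12 for *Ctgf*, 6.35 for *Ptgs2*, 5.84 for *Maff*, 5.58 for *Trib1* and 5.47 for *Nr4a1*.

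Vitamin D and bone genes whose responses differed by the same test were *Cyp24a1* at 4.76, *Spp1* at 1.93, *Enpp3* at 2.22, *Notum* at 3.57, *Dmp1* at 1.83, *Ank* at 2.69 and *Slc20a1* at 1.30. With a negative sign they were *Galnt3* at −4.56, *Sp7* at −2.24, *Ibsp* at −0.79, *Pth1r* at −4.41 and *Sost* at −11.18. The value of *Sost* is a fitted one against vehicle cells of day 3 with no count and is no bound.

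Reads on olfactory receptor genes made up 0.0743%, 0.0508% and 0.0706% of counts in hormone replicates 1, 2 and 3 of day 3, above the vehicle libraries of both days.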

How the results depend on the processing

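The count of genes whose responses differed was 613 with the background as a covariate (391 higher, 222 lower), and 1191 were higher with no filter on low counts. Leaving out 1 library gave 1040 to 1740 genes (573 to 903 higher, 467 to 837 lower). The day 35 response was called for 652 to 1418 genes when 1 library was left out (384 to 778 raised, 268 to 640 lowered). For the difference and the day 35 response the lowest counts were without vehicle replicate 2 of day 35. Without hormone replicate 3 of day 35, 307 genes were lowered. The day 3 response was called for 4095 genes passing filterByExpr (2274 raised, 1821 lowered), 5174 with no filter (2506 raised, 2668 lowered), 1359 with a minimum of 20 CPM (745 raised, 614 lowered) and 504 with the covariate (233 raised, 271 lowered). The causes were not tested, apart from the number of genes tested under each filter.

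The replicate block gave 1254 genes for the difference. Samples with the same number correlated between −0.67 and 0.67, so the numbers do not pair them, and with the block *Lars2* had −4.78 (adjusted p = 0.115) and *Fgf23* −0.73.

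Differences that changed sign were mostly uncalled. With the covariate *Tnfrsf11b* had −0.21, *Enpp1* −0.11, *Phex* 0.34, *Egfr* −0.20, *H2-Ab1* 0.11 and *H2-Eb1* −0.38. With no filter *Phex* had 0.0904, *H2-Ab1* 0.0395 and *Lrp5* 0.18, and among filterByExpr genes *Lrp5* had 0.038. After subtraction *Runx2* had 1.52. *Col15a1* and *Acan*, called with a negative sign in the plain fit, had 5.44 (edgeR adjusted p = 0.00278) and 4.54 (adjusted p = 0.0751). The reversed difference of *Col15a1* thus passed. Leaving out 1 library gave −0.17 to 0.51 for *Tnfrsf11b*, −0.0013 to 0.66 for *Enpp1*, −2.21 to 2.98 for *Fgf23*, −0.47 to 0.45 for *Col1a1*, −0.56 to 0.16 for *Lrp5*, −0.00077 to 1.22 for *Trpv6*, −0.26 to 0.85 for *Csf1*, −1.36 to 0.14 for *Hp*, −0.0548 to 0.36 for *Fgd3*, −0.31 to 0.85 for *Chac1* and −0.23 to 0.43 for *Klf4*. Calls gained were those of *Bglap*, *Bglap2*, *Alpl* and *Fgd3* given with these genes. Depth limits genes with few counts in a group, such as *Sost*, *Dkk1* and *Fgf23*, and *Mup9* did not pass in DESeq2 (adjusted p = 0.0628).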

Other observations

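Most tendon and contractile genes tested fell in early cells. Of 8 tested 6 fell at day 3, where 10.6% of all genes fell, and 4 at day 35, where 5.32% did. The day 35 count was 0 without day 35 vehicle replicate 2 and 2 without day 35 hormone replicate 2, and 3 had a higher difference, *Scx*, *Tagln* and *Cnn1*. *Scx*, a tendon transcription factor gene, had 13.8, 13.3 and 14.4 CPM in treated and 24.9, 24.4 and 21.9 CPM in vehicle cells of day 35, against 3.58, 4.72 and 4.08 CPM in treated and 15.4, 17.9 and 11.6 CPM in vehicle cells of day 3 (difference 1.27 ± 0.26, edgeR adjusted p = 0.00541, not called with the background as a covariate). *Tagln*, which encodes an actin-binding protein of contractile cells, had 8.39, 8.52 and 8.23 CPM in treated and 11.7, 11.1 and 10.2 CPM in vehicle cells of day 35, against 42.4, 33.6 and 39.1 CPM in treated and 75.9, 99.3 and 81.4 CPM in vehicle cells of day 3 (difference 0.96 ± 0.17, edgeR adjusted p = 0.00222). Of 12 tested insulin-like growth factor genes 2 had a higher difference, *Irs2* (2.30 ± 0.48, edgeR adjusted p = 0.00581) and *Igfbp6* (1.55 ± 0.32, edgeR adjusted p = 0.00507). Over all genes 8.61% had a higher difference.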
